A study of Cuscuta campestris with 9 samples.

Results

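MicroRNA loci of the parasitic plant Cuscuta campestris (dodder) were compared between haustoria induced in vitro on Arabidopsis leaves and shoot tips that had formed no haustoria. The 6 libraries of these 2 groups, of 9 in the series, were chosen by their labels, and all 156 loci of the deposited table were read in them. The loci are 80 to 130 nt long (median 89.0) on 75 scaffolds of the assembly Ccam0.32. Of their names, 64 carry a miR number and 92 carry IIM, which in the literature on this parasite stands for interface-induced microRNA. By name they form 103 families, of which 39 have 2 or more loci.

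Haustoria are the feeding organs with which dodder enters a host stem or leaf and joins its vascular tissue. Plant microRNAs are cut from hairpin precursors, guide silencing complexes to matching messenger RNAs and lower their expression. In dodder, some microRNAs made at the haustorium are known to enter the host and to act on host messenger RNAs, among them those of the auxin receptors TIR1 and AFB, of the immune kinase BIK1 and of the phloem protein SEOR1.

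All groups came from the wild-type isolate 'Dottie', grown in a greenhouse on beets and Coleus, and from shoot tips 6 to 8 cm long. For the haustoria group, detached leaves of Arabidopsis thaliana were laid on such tips on 3% agarose, weighed down by 8 slides, before far-red light for 2 h and darkness for 4 days. The shoot tip group was frozen when cut. Haustorium formation, the light and dark treatment, the time after cutting and host contact therefore cannot be told apart here. In bulk tissue, fewer cells of a type and less RNA per cell cannot be told apart either. The table names no locus of 35 conserved plant microRNA families searched for as markers of tissue or host, so neither tissue identity nor host RNA could be checked by marker. The loci carry names given in earlier work on haustoria, so the direction they share is not independent evidence.

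Mapped reads were 11201536, 16703008 and 19244971 in the haustoria libraries, and 10520587, 14681943 and 16706210 in the shoot tip libraries. The loci together took 6.10%, 5.80% and 10.2% of mapped reads in haustoria, against 0.0283%, 0.0249% and 0.0435% in shoot tips. Every haustoria library therefore stood above every shoot tip library, and the group means, 7.38 ± 2.48% and 0.0322 ± 0.0099% (SD, n = 3 each), differed 229-fold. The median locus had 775.5, 1261 and 2560 reads in the haustoria libraries but only 1, 4 and 11 reads in the shoot tip libraries. Loci with no read at all numbered 1, 0 and 0 in the haustoria libraries and 63, 54 and 35 in the shoot tip libraries, so most shoot tip values rest on few reads. Levels of single loci are in RPM, the deposited unit in which reads are scaled by the mapped reads of the library. The labels call the libraries biological replicates.

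Counts were tested with edgeR's quasi-likelihood test, two-sided, with mapped reads as the library size, and a Benjamini-Hochberg adjusted p under 0.05 was called. The fit pooled variance over the loci, with 604 degrees of freedom at each, although the loci share their libraries and are not independent. Very small p-values therefore do not measure the evidence of 3 against 3 libraries alone. Of 151 loci tested, 149 were called higher in haustoria per mapped read (98.7%) and 0 lower. With no model, the lowest haustoria library exceeded the highest shoot tip library at 150 loci (99.3%). Of the loci tested, 52 had fewer than 10 shoot tip reads in all and passed the filter on low counts through their haustoria reads, so these had to differ. They are not the only such loci, since the filter asks for about 10 reads in each of 3 libraries. Of all 156 loci, only 45, 58 and 82 had 10 or more reads in shoot tip libraries 1, 2 and 3. Most loci could therefore not pass on shoot tip reads alone, so the direction of most calls was partly built in. The median fitted log2 change over the tested loci was 8.11, with quartiles of 6.33 and 9.60 and a range of 0.85 to 13.51. A log2 change of at least 4 was fitted at 137 loci, of at least 6 at 118, of at least 8 at 79 and of at least 10 at 32. With the loci that had no shoot tip read set to their lower bound, the median was 7.89.

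**Figure D1:**
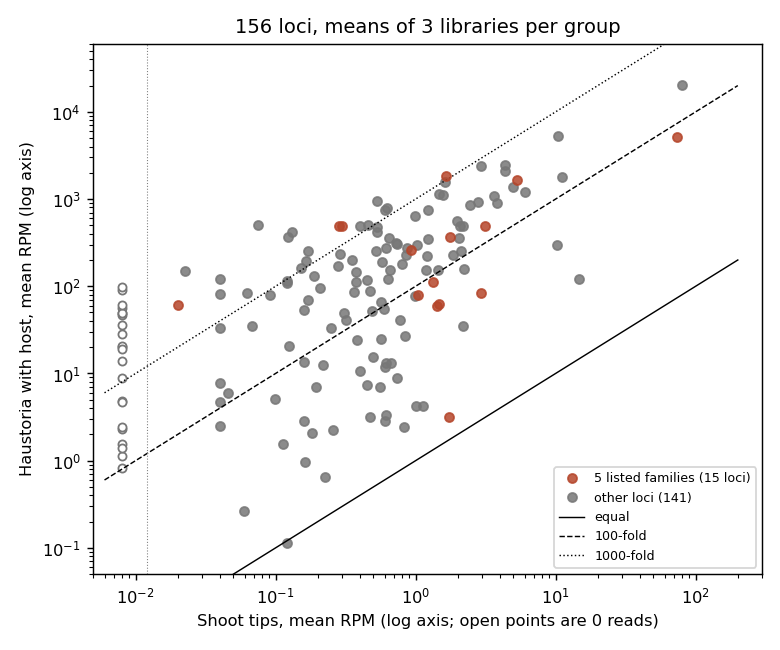
Mean level of each locus in haustoria with host plotted against its mean level in shoot tips, in RPM on log axes, with loci at 0 shoot tip reads drawn open, left of the dotted line; diagonals mark equal levels and 100-fold and 1000-fold differences. Loci of 5 listed families are in red, and all loci but IIM-83 lie above the line of equal levels.

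The order of the loci was close among haustoria libraries and looser among shoot tip libraries. Spearman's rho across loci was 0.97 to 0.98 between pairs of haustoria libraries and 0.64 to 0.68 between pairs of shoot tip libraries. Between the means of haustoria and shoot tips it was 0.58. These are descriptions across loci that share libraries, and the shoot tip values rest on few reads. Of the 20 most abundant loci in haustoria, 14 were among the 20 most abundant in shoot tips. The 15 loci with a mean of 1000 RPM or more in haustoria held 68.7% of locus reads there and 66.1% in shoot tips. Another 60 loci lay between 100 and 1000 RPM in haustoria, 48 between 10 and 100, 28 between 1 and 10 and 5 below 1.

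The most abundant locus in both groups was miR12490a, on scaffold 59 from 1855139 to 1855224. Its level was 15253, 19261 and 26199 RPM in the haustoria libraries, against 88.2, 55.9 and 96.1 RPM in the shoot tip libraries. Each of the haustoria libraries was far above the shoot tips. The log2 change was 7.98 ± 0.72 (SE; edgeR adjusted p = 8.29e-24), close to the median of all loci. As a share of locus reads it took 27.9 ± 4.57% in haustoria and 25.3 ± 5.15% in shoot tips (SD, n = 3 each), and those libraries overlapped.

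The second locus in haustoria was miR12487b (scaffold 191, 250372 to 250460), with 4616, 3910 and 7248 RPM in haustoria and 3.80, 4.5 and 22.8 RPM in shoot tips. The groups did not overlap, and shoot tip library 3 stood well above the other shoot tip libraries. It rose by a log2 change of 8.98 ± 0.93 (SE; edgeR adjusted p = 1.31e-18) and 10.30 without shoot tip library 3. IIM-51 (scaffold 110, 566287 to 566376) had a like spread in shoot tips but was highest in haustoria library 1, with 3363, 1703 and 2398 RPM in haustoria and 0.760, 2.25 and 10.1 RPM in shoot tips. Here too the highest shoot tip value came from library 3. The fitted log2 change was 9.14 ± 1.04 (SE; edgeR adjusted p = 5.37e-16) and 10.66 without that library.

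IIM-43a (scaffold 87b, 766677 to 766765) had 1594, 944 and 3695 RPM in haustoria, against 1.81, 3.06 and 8.14 RPM in shoot tips. Its groups did not overlap, and library 3 was the highest in both groups. The log2 change was 8.90 ± 1.06 (SE; edgeR adjusted p = 4.31e-15), 8.18 without haustoria library 3 and 9.72 without shoot tip library 3. miR12492a (scaffold 35, 2407028 to 2407116) had 1938, 1886 and 3267 RPM in haustoria and 3.90, 0.681 and 4.25 RPM in shoot tips. Every haustoria value stood above every shoot tip value at this locus. The increase on the log2 scale was 9.65 ± 1.07 (SE; edgeR adjusted p = 1.4e-16).

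Among the loci with high levels in shoot tips, miR12469b (scaffold 108, 146615 to 146701) was the most even. It had 1073, 1349 and 2995 RPM in haustoria, against 10.6, 11 and 11.5 RPM in shoot tips. Haustoria and shoot tip values did not overlap, and the shoot tip values were nearly the same. The locus rose per mapped read by a log2 change of 7.35 ± 1.01 (SE; edgeR adjusted p = 2.38e-12), whereas relative to the table's other loci its sign was lower under all 3 scalings tried, at -0.42 under TMM.

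IIM-87 (scaffold 308, 273099 to 273180) stood apart in its rank. Its level was 97.7, 95 and 172 RPM in haustoria, where it ranked 68 of 156 loci, against 17.2, 14.2 and 12.6 RPM in shoot tips, where it ranked 3. The groups did not overlap, and the difference was small beside that of most loci. Per mapped read it was called higher, with a log2 change of 3.05 ± 0.90 (SE; edgeR adjusted p = 0.000831), whereas relative to the other loci it was lower under all 3 scalings, at -4.73 under TMM. Of locus reads it took 0.164% in haustoria and 4.89% in shoot tips.

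**Figure D2:**
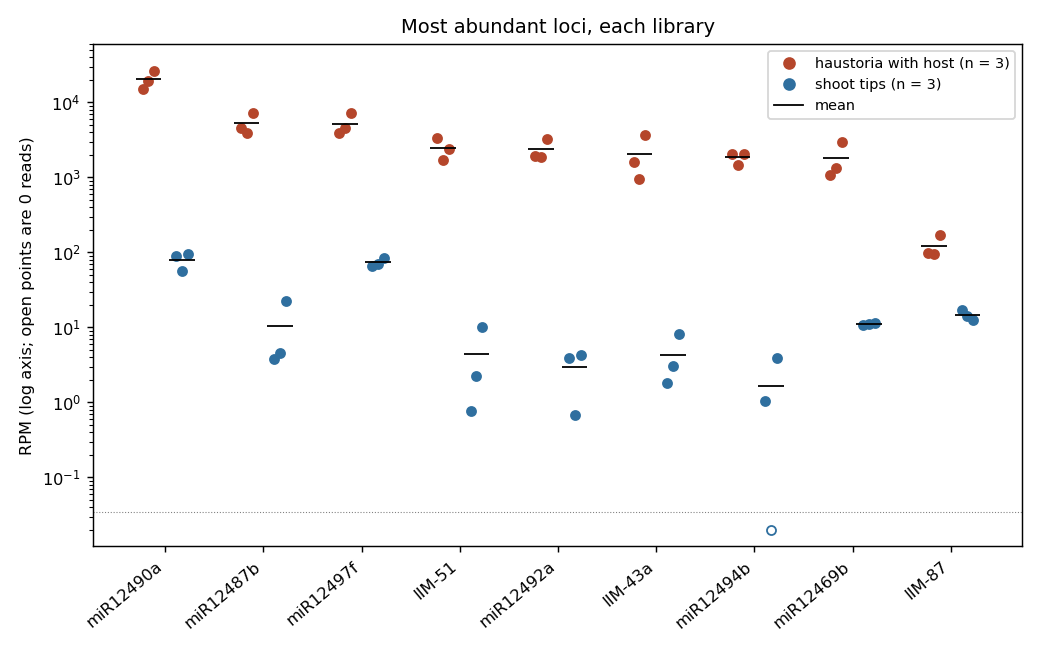
Level of named loci in each of the 3 haustoria libraries and the 3 shoot tip libraries, in RPM on a log axis, with the mean as a line and 0 reads drawn open. miR12490a leads in both groups, at 15253 to 26199 in haustoria and 55.9 to 96.1 in shoot tips, and IIM-87 has the smallest gap among the most abundant shoot tip loci.

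Of the loci with at least 10 shoot tip reads, a level of at least 10 RPM in haustoria and no overlap, the 8 largest fitted increases ranged from log2 10.02 to 10.75. IIM-12a (scaffold 7, 1280041 to 1280132) had 635, 825 and 1388 RPM in haustoria, against 0.380, 0.204 and 1.02 RPM in shoot tips. Its fitted increase on the log2 scale was 10.75 ± 1.25 (SE) and 11.66 without shoot tip library 3. The others are miR12495a and miR12495b, miR12473a, miR12474b, miR12486a, miR12494b and miR12466a. All 8 passed the filter on low counts through their haustoria reads, so their direction was built in and no p-value is given for them. miR12473a (scaffold 191, 522982 to 523072) had 575, 713 and 1095 RPM in haustoria and 0.380, 0.885 and 0.599 RPM in shoot tips. miR12486a (scaffold 130, 959329 to 959416) had 455, 312 and 709 RPM in haustoria and 0.190, 0.409 and 0.599 RPM in shoot tips. At both, the haustoria libraries stood far above the shoot tip libraries.

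For several of these loci a single shoot tip library set the size of the change. miR12474b (scaffold 111, 467974 to 468060) had 741, 406 and 1103 RPM in haustoria, against 0.190, 0 and 1.62 RPM in shoot tips. Its log2 change of 10.22 became 13.01 without shoot tip library 3. miR12466a (scaffold 11, 906235 to 906322) had 329, 411 and 767 RPM in haustoria, against 0, 0.409 and 0.958 RPM in shoot tips. Its log2 change of 10.02 became 11.07 without that library.

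At 22 loci not a single read was seen in the shoot tips, and their haustoria means ran from 0.825 to 98.1 RPM with a median of 19.7. Every locus above 98.1 RPM in haustoria therefore had at least 1 shoot tip read. A count of 0 over the 3 shoot tip libraries allows up to 3 reads, or 0.0716 RPM, for counting error only. miR12479a (scaffold 26, 2523691 to 2523780) had 85.9, 77.4 and 131 RPM in haustoria and no shoot tip read, at least 1371-fold higher. For IIM-98 (scaffold 38, 1984516 to 1984606) the haustoria levels were 77.0, 73.6 and 122 RPM, at least 1272-fold higher. For miR12475 (scaffold 90, 995606 to 995693) they were 52.7, 46.0 and 84.5 RPM, at least 853-fold higher. The bounds were at least 781-fold for IIM-10b, and at least 690-fold for each of IIM-61a and IIM-61b. Without shoot tip library 3 the floor under this and every other such bound is 0.119 RPM, and the bound for miR12479a is 825-fold, that for IIM-98 765-fold and that for miR12475 513-fold. It is 469-fold for IIM-10b and 415-fold for each of IIM-61a and IIM-61b. Leaving out haustoria library 3 instead, with all shoot tip libraries kept, gave 465-fold for IIM-61a and 451-fold for IIM-61b. Without shoot tip library 2, the bounds were 891-fold, 826-fold and 554-fold for the first 3 of these and 507-fold and 448-fold for IIM-10b and IIM-61a.

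A further 13 loci had 1 to 3 shoot tip reads, and their ratios come from summed reads, with 95% intervals for counting error. miR12477 had a mean of 508.5 RPM in haustoria and 3 shoot tip reads, a pooled ratio of 7355 (2516 to 35667). miR12485 had 151 RPM in haustoria and 1 shoot tip read, a ratio of 6976 (1252 to 275559). Both intervals are wide because so few shoot tip reads were counted.

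The smallest changes were fitted at loci that were rare in haustoria. miR12497g (scaffold 111, 802689 to 802777) had 3.75, 3.11 and 2.65 RPM in haustoria and 0.855, 1.23 and 3.11 RPM in shoot tips, where shoot tip library 3 lay within the range of the haustoria. It was not called, with a log2 difference of 0.85 ± 0.88 (SE; edgeR adjusted p = 0.332), and 1.59 without shoot tip library 3. IIM-80 (scaffold 45, 668474 to 668567) had 2.05, 2.39 and 2.86 RPM in haustoria and 0, 1.63 and 0.838 RPM in shoot tips. Its groups did not overlap, yet it was not called either (log2 1.53 ± 0.92, SE; edgeR adjusted p = 0.0993). Without shoot tip library 2 IIM-80 was called, at 2.42. IIM-73c, IIM-73b, IIM-65 and IIM-88 followed, with log2 changes of 1.90, 2.09, 2.28 and 2.41, and their mean levels in haustoria were 4.20, 4.27, 2.82 and 3.35 RPM. Each of these 4 calls was lost when some single library was left out, and with no filter that of IIM-73c had an edgeR adjusted p of 0.0518. Without shoot tip library 1 IIM-65 was 3.84, and without shoot tip library 2 IIM-88 was 3.05. All 6 had a lower sign relative to the table's other loci under all 3 scalings.

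The default filter on low counts left out 5 loci, which are described here by their reads alone. Their haustoria reads were 1, 9 and 3 for IIM-4b, 6, 6 and 20 for IIM-82, 0, 4 and 2 for IIM-83, 32, 3 and 23 for IIM-86b, and 9, 1 and 31 for IIM-90. Shoot tip reads were 0, 0 and 3 for IIM-4b, 0, 10 and 0 for IIM-82, 0, 0 and 6 for IIM-83, and none for IIM-86b and IIM-90. Of all 156 loci, IIM-83 alone had a lower mean level in haustoria, at 0.114 RPM in haustoria and 0.120 RPM in shoot tips.

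Whether a locus gained more or less than the rest was read from 3 scalings that use the table's own loci, at 145 loci tested. Under TMM, 41 were called higher in haustoria (28.3%) and 24 lower (16.6%). DESeq2 size factors gave 37 higher (25.5%) and 26 lower (17.9%), and total counts gave 32 higher (22.1%) and 26 lower (17.9%). The sign was higher in all 3 scalings at 82 loci, lower in all 3 at 55 and mixed at 8. Called in all 3 were 32 higher and 24 lower loci. By name, 20 of 63 miR loci were called higher in all 3 and 8 lower, and 12 of 82 IIM loci were called higher and 16 lower. As a share of locus reads, the haustoria libraries were all higher than the shoot tip libraries at 62 loci (41.1%) and all lower at 23 (15.2%).

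The largest difference in share of locus reads, in percentage points, was at miR12497f. It took 7.07 ± 0.77% of locus reads in haustoria and 23.7 ± 4.64% in shoot tips (SD, n = 3 each), with no overlap. miR12472 took 0.396% in haustoria and 3.17% in shoot tips. Among the loci with larger shares in haustoria, miR12487b took 7.13 ± 0.42% in haustoria and 2.80 ± 2.13% in shoot tips (SD, n = 3 each). Its shares in the shoot tip libraries were 1.34%, 1.81% and 5.25%. IIM-51 took 3.6% in haustoria and 1.17% in shoot tips, but its share in shoot tip library 3 nearly reached that in haustoria library 3. miR12494b took 2.63% in haustoria and 0.422% in shoot tips.

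**Figure D3:**
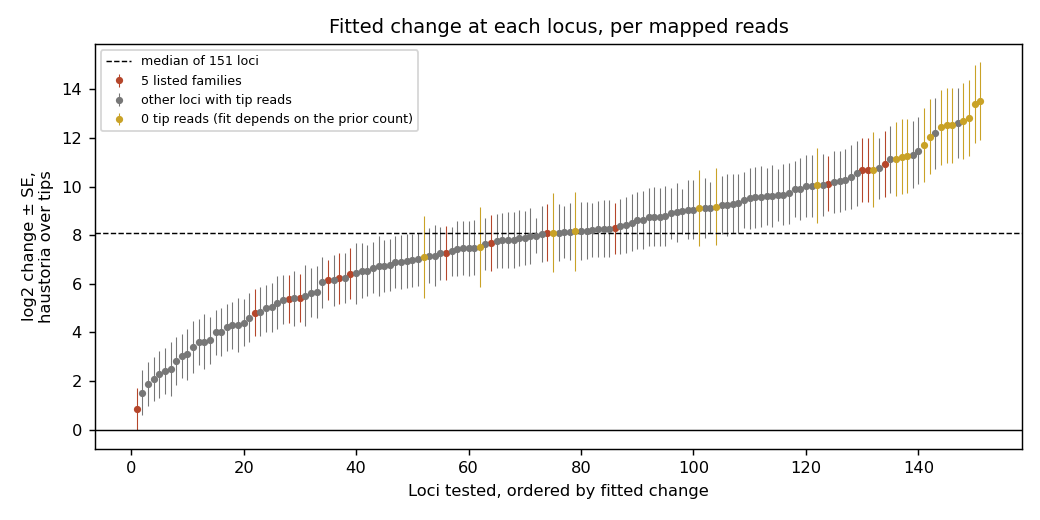
Log2 change per mapped read, haustoria with host over shoot tips, of each tested locus with its standard error, in order of size; loci of 5 listed families are red and loci with no shoot tip read, whose values depend on the prior count, are yellow. All but miR12497g and IIM-80 were called higher per mapped read, and the median (dashed) was 8.11, though scalings on the loci turn the sign of some.

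The families miR12480, miR12494, miR12495, miR12496 and miR12497, which earlier work tied to host messenger RNAs, have 15 loci in the table. Of these, 14 were called higher and 0 lower, against 98.7% of all loci tested, and their median log2 change was 7.27, against 8.15 for the other loci. Together they had 9144, 9847 and 14838 RPM in haustoria, against 86.1, 88.8 and 116 RPM in shoot tips. Their share of locus reads was 15.5 ± 1.31% in haustoria and 30.9 ± 4.56% in shoot tips (SD, n = 3 each). Without miR12497f, the share of the other 14 loci was 8.42 ± 0.86% in haustoria and 7.21 ± 0.14% in shoot tips, with libraries of 8.68%, 9.12% and 7.46% in haustoria, against 7.09%, 7.17% and 7.36% in shoot tips. Those values do not overlap but lie close together.

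miR12497f (scaffold 111, 801311 to 801398) had 3850, 4555 and 7204 RPM in haustoria, against 66.1, 71.0 and 83.7 RPM in shoot tips. Among all loci it ranked 3 in haustoria and 2 in shoot tips, with no overlap of libraries. Per mapped read it was called higher, at log2 6.14 ± 0.82 (SE; edgeR adjusted p = 9.85e-13), whereas relative to the other loci it was lower under all 3 scalings. Its neighbour miR12497g begins 1290 bases further on and was called neither way per mapped read. miR12497a, miR12497b, miR12497c and miR12497d lie on scaffold 13b between 575648 and 582518, and their haustoria means of 60.0, 62.8, 82.8 and 78.5 RPM differed by less than 1.4-fold. miR12497e, on the same scaffold at 602934 to 603020, had 345, 553 and 567 RPM in haustoria, against 1.62, 2.66 and 5.15 RPM in shoot tips. The log2 changes of miR12497a to miR12497e were 5.39, 5.43, 4.81, 6.22 and 7.27 per mapped read, all called, and all 5 had a lower sign relative to the other loci under the 3 scalings.

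The miR12494 and miR12495 loci moved the other way within the table. miR12494b (scaffold 177, 940465 to 940553) had 2059, 1455 and 2055 RPM in haustoria, against 1.05, 0 and 3.89 RPM in shoot tips. The log2 change was 10.12 ± 1.13 (SE), 9.53 without shoot tip library 2 and 11.87 without shoot tip library 3. miR12494a had 61.7 RPM in haustoria and 1 shoot tip read, a pooled ratio of 2699 (484 to 106656). miR12495b (scaffold 165, 425861 to 425948) had 337, 479 and 664 RPM in haustoria and 0.475, 0 and 0.419 RPM in shoot tips, a log2 change of 10.68 that became 10.09 without shoot tip library 2. miR12495a, on the same scaffold, had a log2 change of 10.67, or 12.39 without shoot tip library 3, and its counts differed from those of miR12495b by less than the sampling noise in haustoria. Called higher under all 3 scalings were miR12494a, miR12494b, miR12495a and miR12495b. Over the 5 listed families, 4 loci were thus called higher in all 3 scalings and 5 were called lower. Among all 145 loci with a value under these scalings, 32 were called higher and 24 lower.

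miR12480b (scaffold 136, 450406 to 450492) had 1283, 1489 and 2189 RPM in haustoria, against 5.70, 2.59 and 7.60 RPM in shoot tips. It rose by 8.28 ± 1.06 on the log2 scale (SE; edgeR adjusted p = 1.12e-13), and miR12480a and miR12480c rose by 6.42 and 7.69. miR12496 (scaffold 110, 879163 to 879247) had 159, 220 and 395 RPM in haustoria, against 0.380, 0.885 and 1.5 RPM in shoot tips. The log2 change was 8.10 ± 1.17 (SE), near the median of all loci. miR12496 also passed the filter on low counts through its haustoria reads, so its direction was built in. Neither miR12480b nor miR12496 was called relative to the other loci under any of the 3 scalings.

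Loci with a miR number and loci named IIM were split nearly alike by the test, with 63 of 64 and 86 of 87 called higher. The miR loci had a median level of 241 RPM in haustoria and 0.532 RPM in shoot tips, and the IIM loci 49.4 RPM in haustoria and 0.435 RPM in shoot tips. Their median log2 changes were 8.54 and 7.76, a difference of 0.77 that was not tested. Leaving out single libraries gave 0.58 to 1.19, the largest without shoot tip library 2. With the loci that had no shoot tip read set to their lower bound, the medians were 8.16 and 7.17. Across loci, the log2 change rose with the level in haustoria (Spearman's rho 0.46), so name and level were not separated.

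With the loci of each family summed, 99 of 100 families tested were called higher in haustoria (99.0%) and 0 lower. Copies of a family were often far apart in level. In haustoria the highest copy was over 10 times the lowest in 15 of 39 families and over 100 times in 5, and within 1.5-fold in 9, with a median fold of 3.91. For 6 of 78 pairs of copies (IIM-61a and IIM-61b, IIM-73b and IIM-73c, IIM-76a and IIM-76b, IIM-79a and IIM-79b, miR12495a and miR12495b, miR12497a and miR12497b), a chi-square test found no difference between the haustoria read counts of the copies at p under 0.05. The p was closest to that threshold for miR12497a and miR12497b, at 0.052. The test cannot tell shared reads from equal levels. How reads that map in several places were assigned is not given, so the value of any single copy is uncertain.

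In 18 families with 10 or more reads in each library, the leading copy in haustoria also led in shoot tips in 15. The leading copy's share of its family was above that of all shoot tip libraries in every haustoria library in 5 families (27.8%), and below in 2 (11.1%). The copy was picked by its haustoria level, which favours a larger share there, so nothing is concluded from the balance of these counts. IIM-73a held 95.3%, 96.5% and 97.0% of its family's reads in haustoria and 31.0%, 42.9% and 60.3% in shoot tips. miR12436b held 46.0%, 53.8% and 52.7% in haustoria and 5.56%, 7.69% and 27.9% in shoot tips. miR12465c held less of its family in haustoria, with 29.1%, 38.8% and 38.5%, against 89.5%, 100% and 65.5% in shoot tips. miR12479b held 60.0%, 80.9% and 69.3% in haustoria and 100% in each shoot tip library, where its copy miR12479a had no read. The fewest family reads in a library were 29 for IIM-73, 13 for miR12436, 17 for miR12465 and 11 for miR12479. A few reads can therefore move the shoot tip shares of these families. miR12480b held 72.0%, 82.1% and 77.8% in haustoria and 66.7%, 45.2% and 69.8% in shoot tips. In the family with the most loci, the share of miR12497f was 87.2%, 85.1% and 88.2% in haustoria and 87.5%, 86.3% and 85.2% in shoot tips, and these overlapped.

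**Figure D4:**
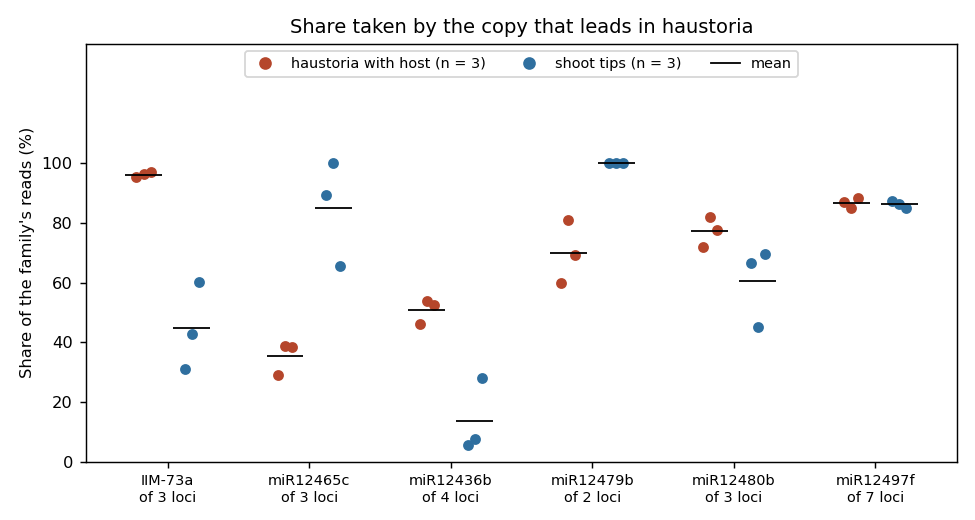
Share of its family's reads, in percent, held by the copy that leads in haustoria, in each haustoria library (red) and shoot tip library (blue), with the mean as a line. IIM-73a and miR12436b hold more of their families in haustoria, miR12465c and miR12479b hold less, and miR12497f overlaps between the groups.

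The second largest family, miR12436, has 4 loci. On scaffold 7, miR12436a (1040605 to 1040692) had a mean of 361 RPM in haustoria and 2.05 RPM in shoot tips, and miR12436b (1050614 to 1050700) had 414 RPM in haustoria and 0.533 RPM in shoot tips. Their log2 changes were 7.45 and 9.52, or 8.22 and 12.19 without shoot tip library 3. miR12436d, also on scaffold 7, and miR12436c on scaffold 9 had 19.0 and 20.8 RPM in haustoria and no shoot tip read, at least 265-fold and at least 291-fold higher.

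Loci often lay close together, with 58 of them in 24 groups within 10000 bases of a neighbour. The 34 adjacent pairs differed in haustoria level by a median of 12.0-fold, and 20 pairs by over 10-fold, though 14 pairs were of a single family. miR12490b lies 7988 bases from miR12490a and had 13.1 RPM in haustoria and 0.617 RPM in shoot tips, where miR12490a had 20238 RPM in haustoria. Its log2 change was 4.4, on 25 shoot tip reads. miR12487c lies 6110 bases from miR12487b and had 8.94 RPM in haustoria and no shoot tip read, at least 125-fold higher. IIM-43a shares scaffold 87b with IIM-43c, at 2.33 RPM in haustoria, and IIM-43b, at 173 RPM. On scaffold 177 miR12494b lies beside IIM-67, IIM-68 and miR12473, which had 133, 11.9 and 20.5 RPM in haustoria, against 1856 RPM for miR12494b.

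**Figure D5:**
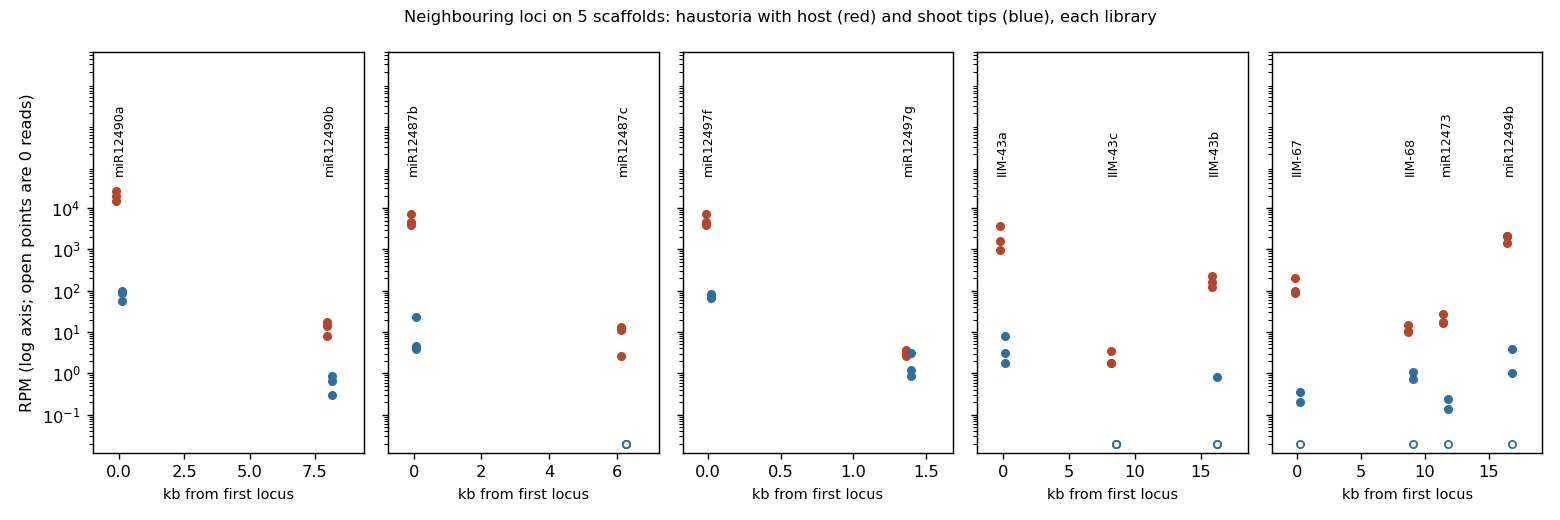
Level in each haustoria library (red) and shoot tip library (blue), in RPM on a log axis, against the distance from the first locus in kb, for the 5 most abundant groups of neighbours, with 0 reads drawn open. Neighbours differ widely, such as miR12490a at 20238 and miR12490b at 13.1 in haustoria.

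The same pairs of families recurred as neighbours on different scaffolds. Within 100000 bases, 35 pairs of different families were neighbours, and 5 of them recurred on 2 scaffolds, a pattern singled out after the values were seen. On scaffold 177 miR12494b, at 1856 RPM in haustoria, was higher than miR12473 at 20.5 RPM, while on scaffold 191 miR12494a, at 61.7 RPM, was lower than miR12473a at 794 RPM. On scaffold 7 IIM-12a, at 949 RPM in haustoria, was above miR12464a at 83.3 RPM, while on scaffold 31 IIM-12b, at 88.0 RPM, was below miR12464b at 251 RPM. For 2 of the recurring pairs the order was the same on both scaffolds. miR12469 loci, at 1806 and 905 RPM in haustoria, exceeded IIM-48 loci at 358 and 85.9 RPM, and miR12482 loci, at 364 and 53.2 RPM, exceeded IIM-99 loci at 54.3 and 15.6 RPM. In the last pair IIM-10a, at 46.9 RPM, lay below miR12436a and miR12436b and above miR12436d on scaffold 7, and IIM-10b, at 55.9 RPM, lay above miR12436c on scaffold 9.

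Libraries within a group were uneven. Haustoria library 3 was the highest of its group at 129 of 151 tested loci, library 1 at 14 and library 2 at 8. Shoot tip library 3 was the highest at 79 of 131 loci with a shoot tip read. The median SD over the mean was 41.3% in haustoria, with a range of 6.90% to 100%. At the 58 loci with 30 or more shoot tip reads it was 36.4% in haustoria and 59.1% in shoot tips.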

How the data were processed

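Small RNA reads were counted at microRNA loci. The deposited table gives, per the file headers, a read count, the library's mapped reads and a level in RPM, the count scaled by mapped reads. Cutadapt 3.5 and Bowtie were used, per the submitters' processing notes. The choice of loci and the handling of reads that map in several places are not given there.

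Counts were tested with edgeR 4.0.16 in R 4.3.3 on the 6 libraries, with mapped reads as library size and no covariate, after the default filter (minimum count 10, minimum total 15), which kept 151 of 156 loci. The threshold was a Benjamini-Hochberg adjusted p under 0.05. A standard error is the fitted log2 change over the square root of its F statistic. Loci without shoot tip reads were set against 3 reads over the group, and their fitted change depends on the prior count of 0.125. Bounds and intervals cover counting error only, since the table does not mark PCR copies. Mapped reads were 11201536 to 19244971 in the haustoria libraries and 10520587 to 16706210 in the shoot tip libraries, where few reads per locus limit the precision.

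Alternatives were TMM, DESeq2 1.42.0 size factors and total counts over the loci, the DESeq2 and limma-voom (limma 3.58.1) tests, no filter, a filter of 10 RPM in 3 libraries, a test against a 2-fold change, a replicate block, and leaving out single libraries. The test was checked on simulated counts in which both groups had the pooled levels and most loci were unchanged. That check does not cover loci with few shoot tip reads or a shift shared by nearly all loci.

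Loci were named by rule: the 8 highest in haustoria, the 5 highest in shoot tips, the 8 largest increases (no overlap, at least 10 RPM in haustoria and 10 shoot tip reads), the 6 highest without shoot tip reads, the 6 lowest changes, members of 5 listed families, loci the filter removed, the families with the most loci or the largest differences in leading share, and the 5 most abundant groups of neighbours within 10000 bases. miR12477, miR12485, miR12472 and the recurring neighbours were chosen after their values were seen. Members and lists were chosen with earlier results of these data known.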

Additional observations from a re-analysis of the deposited data

How the results depend on the processing

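The counts and medians kept their direction under mapped reads with DESeq2, limma-voom, no filter, a filter of 10 RPM, a 2-fold test and the replicate block, but not when loci were scaled to each other. Higher calls were 41 under TMM, 37 under size factors and 32 under total counts, and lower calls 24, 26 and 26. The median log2 change was 0.56, 0.29 and 0.30, higher loci without overlap 62, 58 and 58, listed loci called higher 4, 4 and 4, and summed families called higher 23 under TMM. Signs turned lower, under TMM, size factors and total counts in turn, for IIM-65 (-5.53, -5.64, -5.61), IIM-73b (-5.54, -5.80, -5.76), IIM-73c (-5.80, -6.11, -6.02), IIM-80 (-6.06, -6.45, -6.37), IIM-87 (-4.73, -4.96, -4.90), IIM-88 (-5.26, -5.63, -5.56), miR12469b (-0.42, -0.69, -0.63), miR12497a (-2.29, -2.54, -2.51), miR12497b (-2.26, -2.46, -2.44), miR12497c (-2.91, -3.19, -3.14), miR12497d (-1.48, -1.81, -1.71), miR12497e (-0.16, -0.42, -0.46), miR12497f (-1.53, -1.79, -1.75) and miR12497g (-6.49, -6.73, -6.79), since these scalings remove the shift shared by the loci. Leaving out a library in turn gave 141 to 151 higher calls, 0 lower, a median of 7.75 to 8.68, 149 to 153 loci without overlap, 14 listed loci, 94 to 100 families, a naming difference of 0.58 to 1.19 and a share ratio of 185 to 278. The loci that passed the filter changed with the library left out, so these counts cannot be set directly against the 149 of 151. With the replicate number as a block, 144 of 151 loci were called higher and 0 lower and the median was 8.35. The calls of IIM-73b, IIM-73c, IIM-65 and IIM-88 were lost there. Deviations of log2 levels from the group mean correlated at 0.21, 0.12 and 0.09 between same-numbered libraries, so the numbers were not taken as pairs. In these deviations each library still correlated best with its own number, a hint from the data and not the design. What shoot tip depth limits is the size of changes at loci with few reads there.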
